A study of Homo sapiens with 6 samples.

Results

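The genes described here are the human nuclear receptors and a set of coregulators that act with them, among them the corepressor NRIP1. The list holds 53 genes, taken by family membership and role, with earlier results of these data known. For 44 of them a single-symbol probe set gave a value, among 18417 genes measured in the same way, and each gene was represented by its brightest such probe set. RARA was present only in a probe set shared with another gene, and NCOA3, NCOR1, NR1H2, NR1H4, NR1I2, HNF4A, NR2F2 and NR0B1 are not named by the annotation used here, so these 9 genes are given no value.

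Expression was measured on Affymetrix whole-transcript arrays in HCT116 cells, a widely used line from a human colorectal carcinoma. The groups are a mutant line derived from HCT116 and described as having altered DNA methylation (3 arrays), and the parental line (3 arrays). Both were grown in McCoy's 5A medium with serum and antibiotics. The labels name neither the mutated gene nor the number of clones, so the mutation and other differences between the lines cannot be told apart. Values are log2 intensities after robust multi-array averaging (RMA), and each change is the mutant mean minus the parental mean.

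Nuclear receptors are transcription factors, many of which are switched by small lipophilic ligands such as steroids, thyroid hormone, retinoids, bile acids and fatty acids. Bound to DNA alone or as pairs, often with a retinoid X receptor, they recruit coactivators or corepressors that modify chromatin. NRIP1, also called RIP140, binds many ligand-activated receptors through short leucine-rich motifs and recruits deacetylases and CtBP proteins. In the intestine, members of the family sense fatty acids, bile acids, vitamin D and glucocorticoids.

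Among these genes the lines differed most at NRIP1, and NR2F1, NR1D2 and NR1D1 also fell by more than 2-fold in the mutant. In total 13 of 44 measured genes changed at an adjusted p under 0.05 (limma, Benjamini-Hochberg over all probe sets), with 5 higher and 8 lower. That is 29.5% of the genes, against 25.9% of all genes measured; 11.4% were higher, against 14.6% of all genes, and 18.2% were lower, against 11.3%. With a change of at least 1.5-fold, 8 genes remained, 1 higher and 7 lower, or 18.2%, 2.27% and 15.9%, against 7.22%, 3.34% and 3.88% of all genes. The 4 genes lower by at least 2-fold make 9.09%, against 1.65% of all genes. Because the list was chosen with earlier results of these data known, these shares are not independent of that choice. The median change was 0.008, against 0.0034 over all genes. Groups did not overlap for 17 of the 44 genes (38.6%), against 45.8% of all genes.

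Promoter sequences are shown for genes lower by at least 2-fold, because the mutant line is labelled by its DNA methylation and CG dinucleotides are where that mark is placed. Each is the 250 bases before a RefSeq transcription start in GRCh38.p14, 5′ to 3′ on the gene's strand. For NRIP1 all 3 listed starts are given, at chr21:15065937-15066186, chr21:15065001-15065250 and chr21:15064591-15064840 (minus strand), and for NR2F1 the first of its 2 listed starts, at chr5:93582972-93583221 (plus strand). Capitals mark CG.

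NRIP1 start 1: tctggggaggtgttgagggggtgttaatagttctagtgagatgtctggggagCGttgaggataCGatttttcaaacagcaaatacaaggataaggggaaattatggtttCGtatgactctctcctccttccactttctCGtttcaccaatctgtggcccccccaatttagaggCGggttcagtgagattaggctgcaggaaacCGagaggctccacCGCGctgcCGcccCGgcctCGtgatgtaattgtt

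NRIP1 start 2: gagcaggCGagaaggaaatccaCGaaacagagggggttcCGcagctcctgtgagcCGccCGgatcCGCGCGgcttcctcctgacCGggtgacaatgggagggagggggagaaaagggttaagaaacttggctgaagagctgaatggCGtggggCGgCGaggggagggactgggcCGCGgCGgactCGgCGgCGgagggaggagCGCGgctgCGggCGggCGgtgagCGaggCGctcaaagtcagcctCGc

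NRIP1 start 3: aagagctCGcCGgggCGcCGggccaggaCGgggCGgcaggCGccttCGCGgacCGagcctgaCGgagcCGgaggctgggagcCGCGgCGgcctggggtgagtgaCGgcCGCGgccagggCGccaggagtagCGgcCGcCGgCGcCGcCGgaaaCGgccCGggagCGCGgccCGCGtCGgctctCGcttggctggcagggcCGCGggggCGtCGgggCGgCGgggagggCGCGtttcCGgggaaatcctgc

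NR2F1 start 1: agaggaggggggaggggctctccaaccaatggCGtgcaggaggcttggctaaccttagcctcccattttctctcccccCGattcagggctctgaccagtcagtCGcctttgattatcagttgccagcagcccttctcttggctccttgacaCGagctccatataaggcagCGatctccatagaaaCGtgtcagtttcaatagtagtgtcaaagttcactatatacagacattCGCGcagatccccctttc

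The NRIP1 windows held 11, 26 and 42 CG dinucleotides, and the NR2F1 window held 8. Over the 35116 promoter windows of the same length in the table the median was 11, with quartiles of 3 and 23. Of the NRIP1 windows, those of starts 2 and 3 were above the upper quartile of all windows, and the NR2F1 window was below the median. The second NR2F1 start had 2, the NR1D2 starts had 26 and 42, and the NR1D1 start had 20. The highest counts among the measured genes with a window were those of RXRA and NCOA1, which are given here for that reason. RXRA, which rose, had 59 and 7, and NCOA1, which did not pass, had 46, 25 and 0. Counts were not compared between the genes that fell and the others. Methylation of these bases was not analysed here.

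Among coregulators, NRIP1 (probe set 8069553, chromosome 21) had log2 values of 4.39, 4.43 and 3.95 on the mutant arrays, against 9.55, 9.35 and 9.45 on the parental arrays. The 3 mutant values lay far below the 3 parental ones and below the lower quartile of all probe sets, which was 4.99 to 5.04 on the 6 arrays. The means were 4.26 ± 0.26 in the mutant and 9.45 ± 0.10 in the parental line (SD, n = 3 each). The change was -5.19 (95% interval -5.53 to -4.86; limma adjusted p = 1.67e-05), a fitted 36.6-fold decrease. Since RMA compresses differences of dim probe sets, the size of this decrease is uncertain. Its call held in each of the 17 alternative settings that kept the gene.

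The p160 coactivators, which bring histone acetyltransferases to ligand-bound receptors, were represented by NCOA1 and NCOA2. NCOA2 had 9.34, 9.27 and 9.33 on the mutant arrays, against 9.12, 9.10 and 9.15 on the parental arrays, without overlap. It rose by 0.19 (adjusted p = 0.0365 with limma), but the call was lost in 9 of 18 alternative settings, among them the omission of any 1 of the 6 arrays. NCOA1 gave a change of 0.14 (95% interval -0.01 to 0.29; adjusted p = 0.195), also without overlap. The coactivators of the PGC1 family, known for driving mitochondrial genes, gave -0.14 (PPARGC1B, adjusted p = 0.286) and -0.09 (PPARGC1A, adjusted p = 0.422). PPARGC1A was dim in both lines, with means of 4.67 in the mutant and 4.76 in the parental line.

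**Figure D1:**
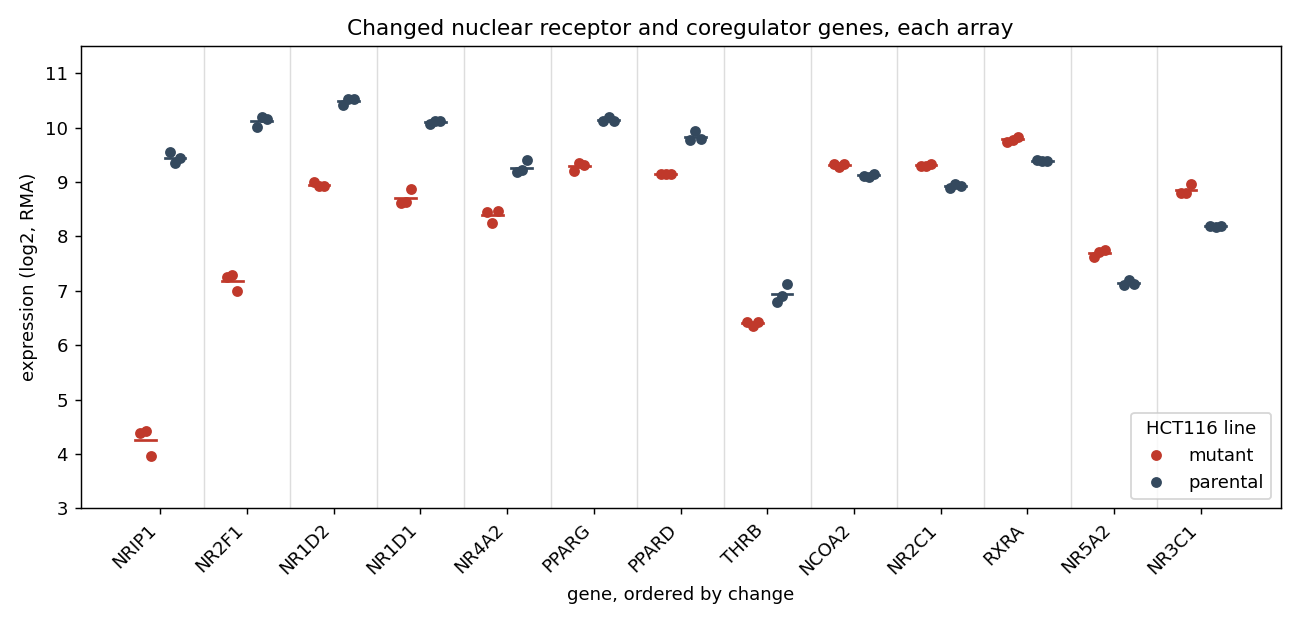
Expression (log2, RMA; vertical axis) of the 13 genes called between the lines, in order of change along the horizontal axis, with mutant arrays to the left of parental arrays for each gene, a point per array and a bar at the group mean. The groups do not overlap for any of the 13 genes, and NRIP1 stands at 4.26 in the mutant and 9.45 in the parental line; levels of different genes are not comparable.

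Among receptors with no settled physiological ligand, NR2F1 (COUP-TFI, a repressor and activator known from neural development; probe set 8106923, chromosome 5) had values of 7.25, 7.30 and 6.99 in the mutant, against 10.01, 10.19 and 10.17 in the parental line. All 3 mutant arrays lay far below the lowest parental array. NR2F1 fell by 2.94 on the log2 scale (7.69-fold; limma adjusted p = 3.39e-05). Its close relative NR2F6 gave -0.07 (95% interval -0.21 to 0.06; adjusted p = 0.460).

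NR4A2 (Nurr1), a receptor induced rapidly by growth and stress signals, had 8.44, 8.25 and 8.48 in the mutant, against 9.18, 9.21 and 9.40 in the parental line. It fell by 0.88 on the log2 scale (1.84-fold; limma adjusted p = 0.00155), with every mutant array below every parental one. Its paralogs NR4A1 and NR4A3 gave 0.11 (95% interval -0.06 to 0.29) and -0.02 (-0.13 to 0.09), with adjusted p-values of 0.366 and 0.853. Of the 3 NR4A genes, 1 therefore passed the test.

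NR5A2 (LRH-1), which in mouse gut epithelium supports local glucocorticoid synthesis, had 7.61, 7.71 and 7.74 in the mutant, against 7.10, 7.19 and 7.13 in the parental line. It rose by 0.55 (95% interval 0.41 to 0.69; limma adjusted p = 0.00167), with no overlap. NR2C1, the testicular receptor TR2, had 9.29, 9.30 and 9.32 in the mutant, against 8.89, 8.95 and 8.93 in the parental line. NR2C1 rose by 0.38 (limma adjusted p = 0.00291), while its partner NR2C2 gave 0.07 (adjusted p = 0.490). The NR2C1 call was lost when the test required a fold of at least 1.2. The remaining orphan receptors NR2E1, NR2E3, NR5A1 and NR6A1 gave 0.02 to 0.20, and none passed the test.

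Both REV-ERB genes fell. These heme-binding receptors lack the activation helix, recruit the corepressor NCOR1 and repress BMAL1 in the circadian clock. NR1D2 (REV-ERB beta, probe set 8078272, chromosome 3) had 9.01, 8.93 and 8.92 in the mutant, against 10.41, 10.52 and 10.53 in the parental line. NR1D1 (REV-ERB alpha, probe set 8014956, chromosome 17) had 8.61, 8.64 and 8.87 in the mutant, against 10.06, 10.12 and 10.11 in the parental line. Each mutant array lay more than 1 log2 unit below the lowest parental array for both genes. The changes were -1.53 for NR1D2 (95% interval -1.67 to -1.40; limma adjusted p = 4.49e-05) and -1.39 for NR1D1 (-1.59 to -1.20; adjusted p = 0.000204). RORA and RORB, activators that compete with REV-ERB proteins for the same DNA elements, gave -0.04 and 0.07, with adjusted p-values of 0.830 and 0.594. Both ROR genes were dim, with means under 6 in each line.

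Of 14 measured clock genes outside the family, 3 rose and 6 fell, with a median change of -0.10. These are 21.4% higher and 42.9% lower, against 14.6% and 11.3% of all genes. CLOCK, the partner of BMAL1, had 9.51, 9.48 and 9.39 in the mutant, against 10.81, 10.85 and 10.82 in the parental line, and fell by 1.37 (limma adjusted p = 5.30e-05). CRY1, which represses CLOCK and BMAL1, had 9.36, 9.43 and 9.44 in the mutant, against 8.07, 8.11 and 8.33 in the parental line, and rose by 1.24 (adjusted p = 0.000318). BMAL1 rose by 0.59 (adjusted p = 0.00104) and the period gene PER2 by 0.40 (adjusted p = 0.00837). DBP, an output factor of the clock, fell by 0.80 (adjusted p = 0.000766) and the repressor gene BHLHE41 fell by 0.63 (adjusted p = 0.00292). The other 3 decreases were of PER3, TEF and BHLHE40, from -0.46 to -0.34, and the calls of PER3 and TEF were lost in 7 and 5 of 18 settings. The activators BMAL1 and CLOCK thus moved in opposite directions.

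NR1D2 and NR1D1 promoters are shown beside these values, because CACGTG is the E-box through which CLOCK and BMAL1 bind. The windows are the second listed start of NR1D2 at chr3:23945871-23946120 (plus strand) and the listed start of NR1D1 at chr17:40100590-40100839 (minus strand), in GRCh38.p14 from RefSeq, with CACGTG in capitals.

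NR1D2 start 2: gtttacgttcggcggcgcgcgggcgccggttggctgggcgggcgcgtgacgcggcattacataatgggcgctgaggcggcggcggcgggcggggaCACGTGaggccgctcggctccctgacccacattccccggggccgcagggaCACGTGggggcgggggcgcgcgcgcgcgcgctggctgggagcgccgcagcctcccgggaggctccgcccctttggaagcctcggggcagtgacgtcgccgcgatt

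NR1D1 start 1: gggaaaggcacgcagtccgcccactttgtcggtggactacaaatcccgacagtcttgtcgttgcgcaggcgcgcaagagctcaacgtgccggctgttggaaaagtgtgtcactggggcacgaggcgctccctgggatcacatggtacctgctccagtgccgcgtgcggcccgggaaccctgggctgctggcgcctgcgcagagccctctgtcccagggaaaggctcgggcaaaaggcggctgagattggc

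The NR1D2 window, chosen because it holds the motif, had 2 copies of CACGTG; the other listed NR1D2 start and the NR1D1 window had 0. The motif reads the same on both strands and was found in 6.34% of all windows. AGGTCA, the half-site read by many nuclear receptors, was searched as itself and as TGACCT on the other strand and was in 0 of the 6 windows printed, against 12.1% of all windows. No matches overlapped, and these counts say only which letters lie in the windows.

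Among sensors of fatty acids and other lipids, PPARG and PPARD fell. PPARG, the receptor of adipocytes that is also high in colon epithelium, had 9.20, 9.35 and 9.31 in the mutant, against 10.12, 10.19 and 10.13 in the parental line. It fell by 0.86 on the log2 scale (1.82-fold; limma adjusted p = 0.000372). PPARD, a regulator of fatty acid oxidation, had 9.14, 9.15 and 9.15 in the mutant, against 9.77, 9.93 and 9.80 in the parental line, and fell by 0.68 (1.61-fold; adjusted p = 0.000762). For both genes all mutant arrays were below all parental ones. PPARA, the fibrate receptor, gave -0.24 (95% interval -0.43 to -0.05; adjusted p = 0.0948) without overlap, and was called in 4 of 18 alternative settings. NR1H3 (an oxysterol receptor), NR1I3 (a xenobiotic receptor) and HNF4G gave -0.04, -0.14 and -0.20, and none passed.

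Genes known as targets of these sensors moved in both directions. Of 16 PPAR targets 2 rose and 1 fell (median 0.03), with the fatty acid oxidation genes ACADM at 0.65 (limma adjusted p = 0.000508) and CPT1A at 0.33, and the kinase gene PDK4 at -0.55. Of 12 LXR targets 2 rose and 3 fell (median -0.09). These were the lipid carrier genes APOE (1.13, adjusted p = 0.000577) and PLTP (0.29), and, lower, SREBF1 (-0.47), SCD (-0.36) and ABCA1 (-0.24, lost in 6 of 16 settings). Of 14 targets of the bile acid and xenobiotic receptors FXR, PXR and CAR, 3 rose and 1 fell (median 0.004). The shares called were 18.75%, 41.7% and 28.6% for the PPAR, LXR and FXR, PXR and CAR lists, against 25.9% of all genes.

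FABP6, the ileal bile acid binding protein, had 10.28, 10.33 and 10.38 in the mutant, against 8.83, 8.89 and 9.01 in the parental line, and rose by 1.42 (limma adjusted p = 9.41e-05). CES2 rose by 0.65 and ALAS1 by 0.26 (lost in 7 of 18 settings), while the drug pump gene ABCB1 fell by 1.05 (adjusted p = 0.00169). Of 12 targets of HNF4A 1 changed (median -0.02), the protease inhibitor gene SERPINA1 at -0.78. Of 12 targets of estrogen-related receptors and PGC1, 2 rose and 1 fell (median 0.15), with ACADM again and SOD2 (0.25) higher and TFB1M (-0.31) lower, the last 2 lost in 7 of 18 settings each. The shares called were 8.33% for the HNF4A list and 25% for this one, against 25.9% of all genes.

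**Figure D2:**
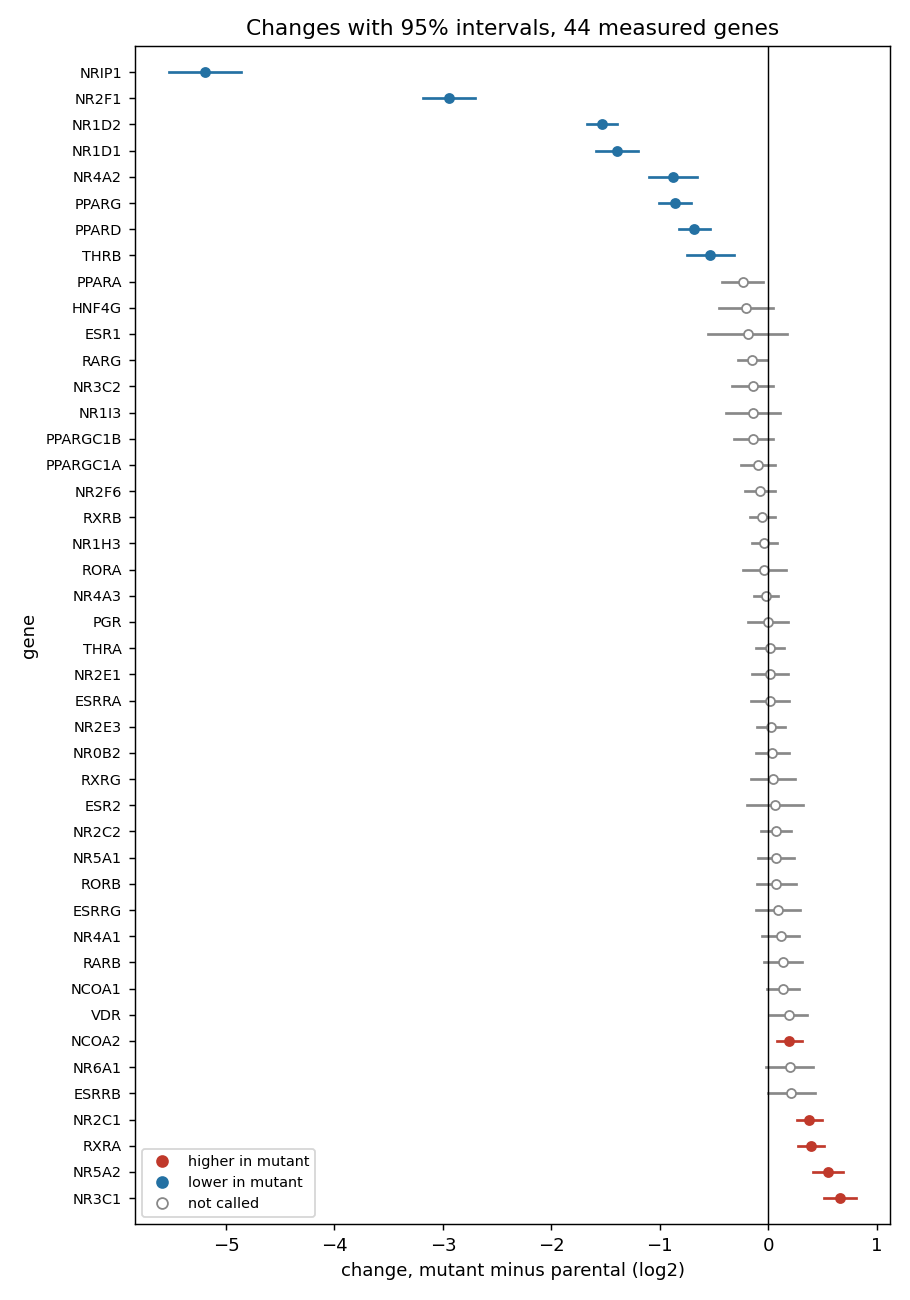
Change between the lines (log2, mutant minus parental; horizontal axis) for each of the 44 measured genes (vertical axis), with 95% intervals from limma; filled points passed the test. NRIP1 lies at -5.19 and NR2F1 at -2.94, and the 31 genes that did not pass lie between -0.24 and 0.21.

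The steroid receptor group had 1 increase. NR3C1, the glucocorticoid receptor, had 8.79, 8.79 and 8.95 in the mutant, against 8.19, 8.18 and 8.18 in the parental line, with no overlap. It rose by 0.66 (95% interval 0.51 to 0.81; limma adjusted p = 0.00100). Its relative NR3C2, the mineralocorticoid receptor, gave -0.14 (adjusted p = 0.298). The estrogen and progesterone receptor genes ESR1 (-0.19, adjusted p = 0.482), ESR2 (0.07, adjusted p = 0.759) and PGR (-0.0012, adjusted p = 0.995) did not pass and were dim, with means under 6 in both lines. A second ESR1 probe set gave 0.16 (adjusted p = 0.186), so the probe sets of this gene gave opposite signs and neither passed. ESRRA, ESRRB and ESRRG, the estrogen-related receptors, gave 0.02, 0.21 and 0.09 and did not pass.

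Of 12 glucocorticoid receptor targets 3 changed, each lower (median -0.05). This 25% is near the 25.9% of all genes called. By direction, 25% were lower and 0% higher, against 11.3% and 14.6% of all genes. Whether so few genes differ from these shares was not tested. TSC22D3 (GILZ), a mediator of anti-inflammatory glucocorticoid action, had 7.01, 7.12 and 7.12 in the mutant, against 7.93, 7.91 and 8.03 in the parental line. It fell by 0.87 (limma adjusted p = 0.000377). ERRFI1 fell by 0.46 (adjusted p = 0.00114), and KLF9 fell by 0.27 (adjusted p = 0.0495), a call lost in 9 of 18 alternative settings.

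Of 11 estrogen receptor targets 3 changed, each higher (median 0.0074). This 27.3% is near the 25.9% of all genes called. By direction, 27.3% were higher and 0% lower, against 14.6% and 11.3% of all genes. Whether so few genes differ from these shares was not tested. GREB1, a cofactor of the estrogen receptor, had 7.966, 7.9955 and 8.080 in the mutant, against 6.806, 6.974 and 7.030 in the parental line, and rose by 1.08 (adjusted p = 0.000370 with limma). CA12 rose by 0.42 and CCND1 (cyclin D1) by 0.28, whereas TFF1, a standard marker of estrogen response, gave 0.0074 (adjusted p = 0.964).

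Among the receptors for thyroid hormone, retinoic acid and vitamin D, THRB fell. It had 6.42, 6.36 and 6.43 in the mutant, against 6.79, 6.91 and 7.12 in the parental line, and fell by 0.54 (limma adjusted p = 0.00920), without overlap. The call was lost when a fold of at least 1.2 was required (adjusted p = 0.151). THRA, the other thyroid hormone receptor, gave 0.02 (95% interval -0.11 to 0.15; adjusted p = 0.885). THRA overlaps NR1D1 on the opposite strand, and the NR1D1 probe set gave -1.39. RARG and VDR gave -0.15 (adjusted p = 0.129) and 0.19 (adjusted p = 0.125) with no overlap of the groups, and each was called in 1 of 18 alternative settings. RARB gave 0.14 (adjusted p = 0.282).

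The retinoid X receptors pair with many of the others. RXRA had 9.74, 9.78 and 9.83 in the mutant, against 9.40, 9.39 and 9.38 in the parental line, and rose by 0.39 (95% interval 0.28 to 0.51; limma adjusted p = 0.00287). All mutant arrays were above all parental ones, and the call was lost when a fold of at least 1.2 was required. RXRB and RXRG gave -0.05 (adjusted p = 0.546) and 0.04 (adjusted p = 0.796), and the 2 further probe sets of RXRB gave -0.04 and -0.05. RXRA lies on chromosome 9, where 30.9% of genes were higher and 5.87% lower in the mutant, with a chromosome median of 0.08. Of its 10 nearest measured genes 3 were higher, VAV2 at 0.76, BRD3OS at 0.46 and BRD3 at 0.43. Whether the rise of RXRA goes with that of its chromosome was not tested.

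Of 10 retinoic acid receptor targets 1 rose and 3 fell (median -0.08). LRAT, which esterifies retinol for storage, had 6.00, 6.18 and 6.48 in the mutant, against 7.81, 7.81 and 8.03 in the parental line, and fell by 1.66 (limma adjusted p = 0.000632). The transglutaminase gene TGM2 fell by 0.81 and the retinal reductase gene DHRS3 by 0.67, while the retinoic acid carrier gene CRABP2 rose by 0.35. Of 9 vitamin D receptor targets 1 rose and 2 fell (median -0.0027). The shares called were 40% for the retinoic acid list and 33.3% for the vitamin D list, against 25.9% of all genes.

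CYP24A1, which clears active vitamin D, had 10.85, 10.97 and 10.93 in the mutant, against 11.92, 11.82 and 11.89 in the parental line. It fell by 0.96 (limma adjusted p = 0.000215). SPP1 (-0.88) and CALB1 (0.32) were also called, and those calls were lost in 6 of 17 and 7 of 16 settings. Among 26 enzymes that form or clear receptor ligands, which include CYP24A1 and DHRS3, 3 rose and 4 fell (median 0.04). This 26.9% is near the 25.9% of all genes called. The steroid sulfatase gene STS rose by 1.06 (adjusted p = 0.000508), RDH10, which makes retinal, by 0.41 and the steroid reductase gene SRD5A1 by 0.33. ALDH1A3, which makes retinoic acid, fell by 0.47, or by 0.20 when its probe sets were averaged, and CYP27B1, which makes active vitamin D, fell by 0.45.

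The receptor without a DNA-binding domain that was measured, NR0B2 (SHP), gave 0.04 (adjusted p = 0.763). Across all roles, the 31 genes that did not pass had changes between -0.24 and 0.21, and their 95% intervals lay between -0.55 and 0.43. Of these, 3 had an unadjusted limma p under 0.05. Of the 11 genes with a mean under 6 on the 6 arrays, 0 passed by limma and 0 had an unadjusted p under 0.05. Of the 24 with a mean of at least 7, 11 passed by adjusted p. The shares of all genes of such brightness that passed were not computed. A dim probe set limits what can be detected, so the genes that did not pass are not shown to be equal between the lines.

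Over all the lists of partners, ligand enzymes and targets 68 of 200 measured genes changed, 34 higher and 34 lower. That is 34% of them, with 17% in each direction, against 25.9% of all genes, with 14.6% higher and 11.3% lower. Brightness was not matched in this or the other comparisons with all genes. Among the lists the share called ran from 8.33% (HNF4A targets) to 64.3% (clock genes). Of 38 coregulators outside the list, 11 rose and 6 fell (median 0.05), which is 28.9% higher and 15.8% lower, against the same 14.6% and 11.3% of all genes. The dimmest of the 38 averaged 7.74 over the 6 arrays, whereas all genes include dim ones. TRIM24, a coregulator of retinoid and estrogen receptors, had 10.48, 10.47 and 10.39 in the mutant, against 9.69, 9.70 and 9.78 in the parental line, and rose by 0.72 (limma adjusted p = 0.000492). NCOA5 rose by 0.53 and the acetyltransferase gene KAT2B by 0.44, and the acetyltransferase genes EP300 and CREBBP, chosen after their values were seen, rose by 0.37 and 0.34.

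SAFB2, an estrogen receptor corepressor, had 7.39, 7.55 and 7.81 in the mutant, against 8.33, 8.42 and 8.39 in the parental line, and fell by 0.80 (limma adjusted p = 0.00447). The deacetylase gene HDAC1 fell by 0.65 (adjusted p = 0.000527), and CTBP2, which encodes a corepressor that NRIP1 recruits, fell by 0.45 (adjusted p = 0.00175). CTBP1, the paralog of CTBP2, gave 0.05 (limma adjusted p = 0.616) and did not pass. Of the measured subunits of the NCOR complex, TBL1X fell by 0.24 (adjusted p = 0.0369, lost in 8 of 18 settings), while HDAC3, GPS2 and TBL1XR1 gave 0.07, -0.06 and -0.04 and did not pass. Among 10 chaperones of steroid receptors 1 rose (DNAJA1, 0.21, lost in 8 of 18 settings) and 3 fell (median -0.05), led by HSP90AA1, the inducible HSP90, at -0.46 (adjusted p = 0.00201). STUB1 (-0.31) and DNAJB1 (-0.24) were the others, lost in 9 and 8 of 18 settings. The share of these chaperones called was 40%, against 25.9% of all genes. Of 10 immediate early genes, which are induced by the same signals as the NR4A genes, 3 rose and 2 fell (median 0.16), with KLF4 at 0.73, FOSB at 0.49, FOS at 0.32, EGR1 at -0.35 and KLF2 at -0.33. That is 50% of them, against 25.9% of all genes.

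**Figure D3:**
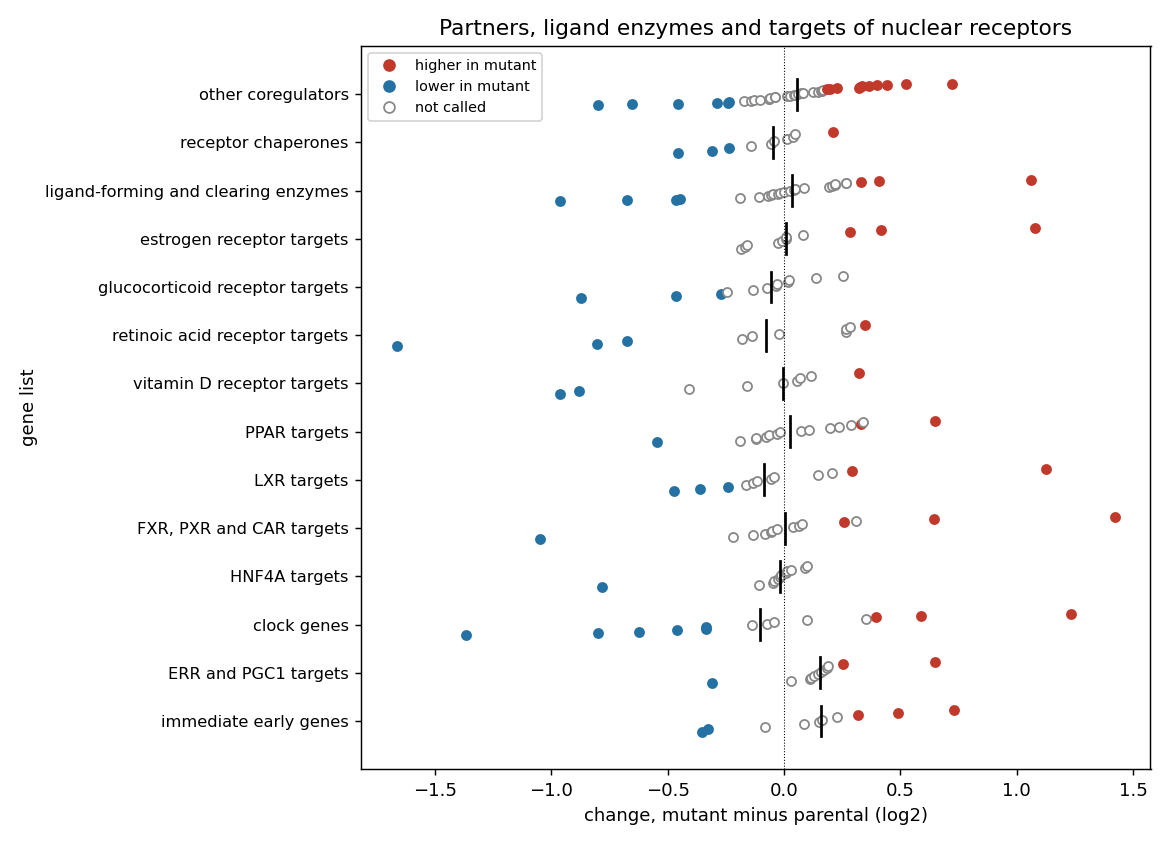
Change between the lines (log2, mutant minus parental; horizontal axis) of each measured gene in the 14 lists with a measured gene (vertical axis), with a point per gene, filled where it passed the test, and a black bar at each list's median. The medians lie between -0.10 and 0.16, with single genes reaching -1.66 (LRAT) and 1.42 (FABP6).

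No gene beside NRIP1 passed the test. Of the 5 measured genes on either side in RefSeq order, 0 were higher and 0 were lower at an adjusted p under 0.05 (limma), with 2 at an unadjusted p under 0.05 and changes between -0.27 and 0.20. Over chromosome 21, 11.4% of 236 genes were higher and 3.39% lower, so a count of 0 among 10 is near the share of the chromosome. HSPA13, a chaperone gene, gave -0.27 (9.20 in the mutant and 9.48 in the parental line; adjusted p = 0.0523), and USP25, a deubiquitinase gene, gave -0.17 (10.20 in the mutant and 10.37 in the parental line; adjusted p = 0.0782). They were called as lower in 8 and 7 of 18 alternative settings. Of the other neighbours MIR99A averaged 6.34 in the mutant and 6.55 in the parental line, and LIPI, RBM11, ABCC13, SAMSN1, MIR99AHG, MIRLET7C and MIR125B2 averaged 3.37 to 4.67 in the mutant and 3.25 to 4.82 in the parental line, where a decrease could hardly be seen.

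Windows of the same size around the other genes changed by at least 1.5-fold, looked at after those changes were known, gave medians between -0.07 and 0.10. Beside NR2F1, ARRDC3 (-0.31) and SLF1 (-0.74) were lower and MBLAC2 (0.44) and KIAA0825 (1.05) higher. NR1D2, THRB and RARB are consecutive measured genes on chromosome 3, with changes of -1.53, -0.54 and 0.14, while TOP2B, NGLY1 and OXSM beyond them rose by 0.66, 0.35 and 0.37. On the other side of NR1D2, UBE2E1 rose by 0.26 and SGO1 fell by 0.46. Next to NR4A2, GALNT5 fell by 3.36 and GPD2 by 0.42. Around NR1D1, 1 of 10 neighbours was lower (RAPGEFL1, -0.24), although 22.9% of the genes of chromosome 17 were lower. Around PPARD 3 of 10 neighbours were lower, FANCE (-0.56), TEAD3 (-0.30) and DEF6 (-0.29). Around NR3C1, which rose, SH3RF2 (-1.09), ARHGAP26 (-0.82) and SPRY4 (-0.34) were lower and KCTD16 (0.42) was higher. Around PPARG no neighbour passed by limma, though MKRN2 (0.27, adjusted p = 0.0569) and SYN2 (0.16, adjusted p = 0.126) had 95% intervals above 0. Over whole chromosomes, 16.1% of genes were higher and 9.59% lower on chromosome 5, and 17.7% and 10.4% on chromosome 3. The shares were 14.6% and 11.4% on chromosome 2, and 14.3% and 12.2% on chromosome 6. Whether the called neighbours exceed these shares was not tested.

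**Figure D4:**
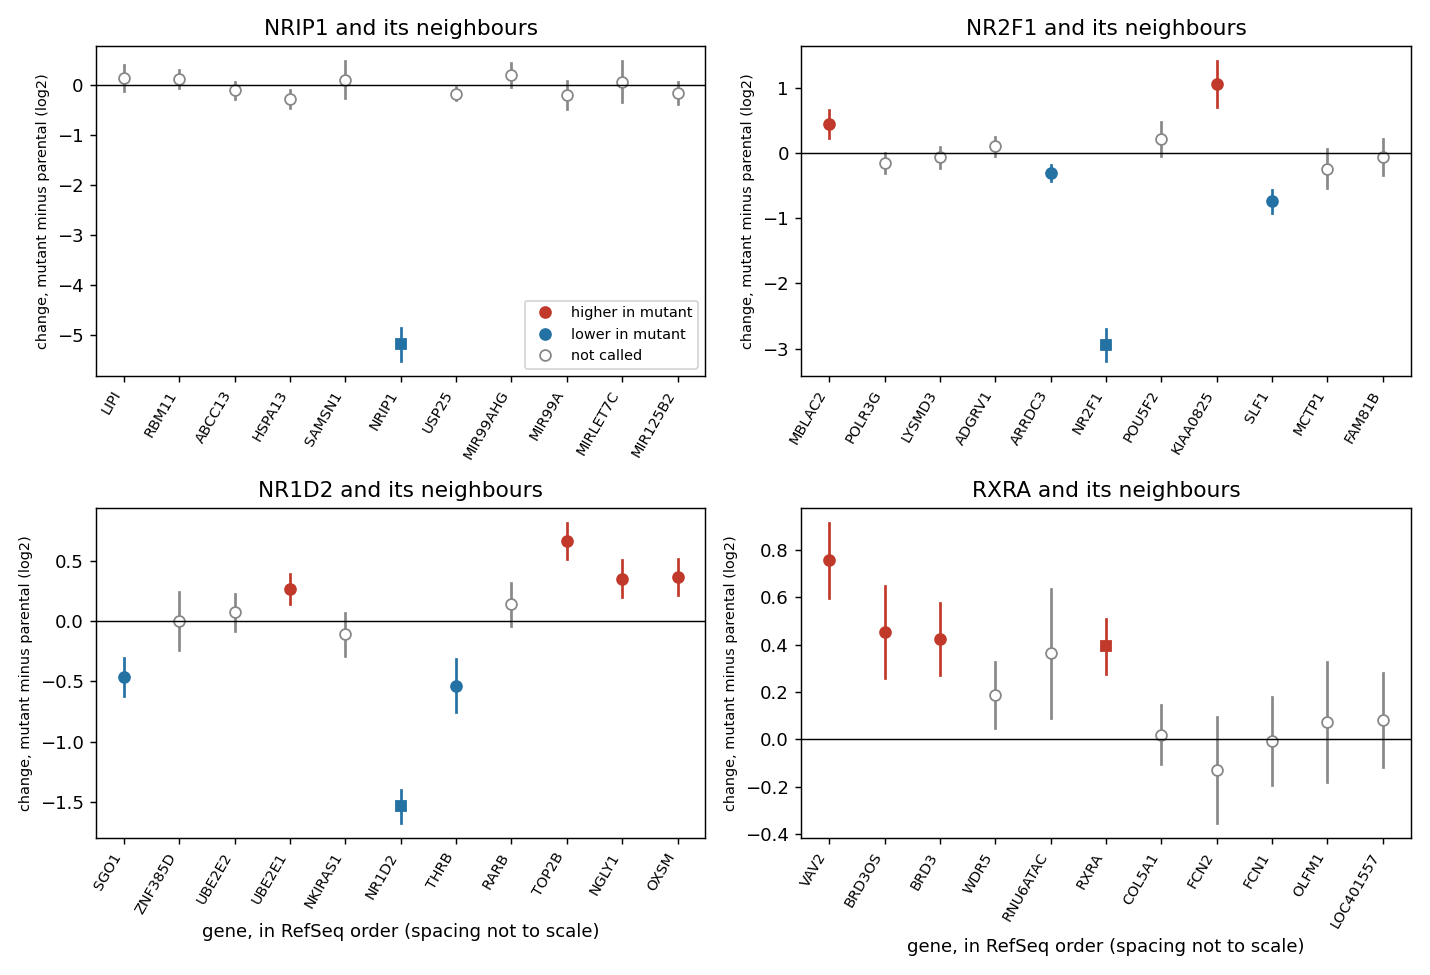
Change between the lines (log2, mutant minus parental; vertical axis, with its own range in each panel) of NRIP1, NR2F1, NR1D2 and RXRA (squares) and the 5 measured genes on either side of each (circles) in RefSeq gene order, with 95% intervals from limma; filled points passed the test. NRIP1 at -5.19 stands apart from neighbours between -0.27 and 0.20. On one side of RXRA (0.39), VAV2, BRD3OS and BRD3 lie at 0.43 to 0.76. The genes on its other side lie between -0.13 and 0.08.

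Markers of colon epithelium averaged 8.6521 to 8.7764 on the mutant arrays and 8.9972 to 9.0332 on the parental arrays over 11 genes, with EPCAM (12.33 in the mutant and 12.15 in the parental line), KRT8, KRT18 and KRT19 bright and CDH17, VIL1 and GPA33 dim in both lines. CDH1, KRT18, KRT8 and KRT19 fell by 1.36, 0.88, 0.53 and 0.47 in the mutant. Markers of leukocytes, fibroblasts, endothelium and hepatocytes averaged 5.20 to 5.78 on the mutant arrays and 5.16 to 5.79 on the parental arrays. Of these markers 1 was called (PDGFRB, 0.27). The part of the lower epithelial markers in the changes above was not tested. In a bulk sample, fewer cells that express a gene and less of its RNA per cell cannot be told apart.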

How the data were processed

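Values were used as deposited: log2 intensities per probe set and array, and per the submitters' processing notes RMA and Partek were used; versions and genome build: not given in the sources used here. Background is subtracted and array distributions are equalised by RMA, so differences in total RNA are lost. Array medians lay between 6.88 and 6.93. Of 33297 probe sets, 19460 carry 1 gene symbol, 1754 several and 12083 none in the platform annotation. All were tested with limma 3.58.1 in R 4.3.3 (mutant minus parental, no covariates, two-sided), with Benjamini-Hochberg adjustment over all of them; tables and plots used Python 3.11.15.

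The genes and lists were chosen with earlier results of these data known. The 15 pathway lists hold 220 genes, of which 200 were measured, 3 by an older symbol; the list of further nuclear receptors had no measured gene. All 13 changed receptor and coregulator genes are given with all arrays, which extends the rule (1.5-fold or more) to 5 further genes; lists are given with up to 3 changed genes per direction, by size. EP300, CREBBP, CTBP1, TFF1, HDAC3, GPS2, TBL1X, TBL1XR1, CYP27B1, PER3, TEF, BHLHE40 and the genes beside receptors other than NRIP1 fall outside this rule and were chosen after their values were seen.

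Promoter windows came from RefSeq (GRCh38.p14), with 38 of the 44 measured genes matched. The labels do not state whether replicate arrays are of different cultures; the spread behind the p-values may therefore be technical only. Alternatives covered normalization, filters, the variance model, the probe set rule, a minimum fold, single arrays left out and a replicate block. Arrays have no sequencing depth, and their number limits the precision.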

Additional observations from a re-analysis of the deposited data

How the results depend on the processing

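The counts and each gene's change were recomputed under 18 alternative settings, and 0 calls changed direction. The number of receptor and coregulator genes called was 9 to 14, against 13, and 12 with each array left out. At 1.5-fold it was 7 to 9, against 8, the 7 because NRIP1 (mean 6.85 over all arrays) is dropped by a minimum mean of 7. Minimum means of 6 and of 7 kept 33 and 24 of the 44 genes, and 14 were called without a fold limit in each. The share of all genes called under these filters was not computed, so the 25.9% of the main fit is no reference for them. Of the 13 called genes, 9 kept their call in every setting they were in. The calls of THRB, NR2C1 and RXRA were lost when the test required a fold of 1.2, and that of NCOA2 in 9 settings. Calls were gained for PPARA, RARG and VDR under filters on dim probe sets, and for PPARA also with single-symbol probe sets only or averaged per gene, where fewer features are tested. Over the settings NRIP1 ran from -5.28 to -5.04, with adjusted p from 3.03e-07 to 0.00175.

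Among the pathway lists 68 of 200 genes were called, and 26 when the test required a fold of 1.2, which is stricter by construction; leaving out each array gave 49 to 56. Other settings gave more: 73 with array weights, 85 with an intensity trend, 86 with single-symbol probe sets only, 87 with probe sets averaged per gene, and 85 of 154 and 84 of 132 tested at a minimum mean of 6 and of 7. The share of all genes called under these settings was not computed. These counts therefore cannot be set against the 25.9% of all genes called in the main fit. Of the 10 neighbours of NRIP1, 0 were called, but 2 (HSPA13 and USP25) were called with array weights, an intensity trend, quantile normalization again, a minimum mean of 6 or of 7, single-symbol probe sets only or probe sets averaged per gene; leaving out each array gave 0 to 1, the 1 without parental replicate 1. The cause of the array weights, trend and quantile values was not tested.

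Replicate numbers did not pair the arrays: deviations of same-numbered arrays correlated at 0.04, -0.01 and 0.0027, and not every array correlated best with its own number. With the replicate number as a block, 12 receptor and coregulator genes, 8 at 1.5-fold, 50 genes of the pathway lists and 0 NRIP1 neighbours were called. No groups of 4 or more arrays exist, so single arrays were not screened as outliers. Depth does not apply to arrays, and dim probe sets limit what can be detected.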
